A study of Mus musculus with 18 samples.

Results

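The 43 genes described here are cell cycle and proliferation genes, whose RNAs are made mainly by cells that are copying their DNA or dividing. They were measured in RNA-seq libraries of adipocytes from inguinal white adipose tissue (iWAT), adipocytes from epididymal white adipose tissue (eWAT) and whole brown adipose tissue (BAT). The members were taken by symbol, and of several rows for a symbol the most abundant by mean RPKM was used. All 43 were found among the 52093 symbols of the files. RPKM, the read count scaled to transcript length and to library size, allows for length, so levels of different genes are compared on it.

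All 18 libraries came from male wild type C57BL/6 mice that had eaten a high-fat diet during 12 weeks, with 6 libraries for each tissue. The source of the mice is given as C57BL/6J in the labels and as C57BL/6NTac in the notes of the study, which also give an age of 16 weeks, and a treatment field of the labels names regular chow against the titles and protocol. The white depots were digested with collagenase and the layer of floating mature adipocytes was taken, whereas BAT was frozen as whole tissue, so the preparation and the depot cannot be told apart in any comparison with BAT. All BAT libraries were sequenced on lanes 3 and 4 and all white libraries on lanes 1 and 2, so the lane cannot be told apart from BAT either. Samples carry the numbers 1, 2, 3, 4, 5 and 16 in both white depots and 1, 2, 5, 16, 17 and 18 in BAT. The labels do not state that each number is a separate mouse, and the p-values measure the spread between these samples. The libraries held 24655056 to 42518483 reads on the rows, so a level of 3 reads at the median length of a member was at most 0.0282 RPKM.

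In a dividing cell, E2F factors switch on genes for DNA replication, the MCM helicase unwinds origins, and the sliding clamp holds the polymerase on the template. Cyclins A and B with CDK1 then drive mitosis, in which kinesins and kinetochore proteins build the spindle and separate the chromosomes. Genes of the mitotic phase are known to be switched on together through CHR and CCAAT elements of their promoters, and genes of the replication phase through E2F sites. Mature adipocytes are largely out of the cycle, whereas immune, endothelial and progenitor cells of adipose tissue can divide.

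The promoter stretches below show these letters in members of both phases. Each gives the bases just before the transcription start, from RefSeq on GRCm38.p6. Capitals mark motifs read on both strands. The letters searched for CHR were TTTGAA. A variant of CHR with C in the middle, TTCGAA, was also taken. The CCAAT box was searched as its name spells it, and the E2F letters were TTTGGCGC, TTTCCCGC, TTTGCCGC or TTTCGCGC. Mki67 (chr7:135716380-135716534, minus strand) and Top2a (chr11:99024190-99024344, minus strand) belong to mitosis and hold CHR and CCAAT letters. Cdk1 (chr10:69352913-69353067, minus strand) holds all 3 kinds. Mcm5 (chr8:75109354-75109508, plus strand) and Mcm6 (chr1:128359706-128359860, minus strand) belong to the helicase and hold E2F and CCAAT letters but no CHR letters in this window. E2F letters overlap each other in the first capital run of Mcm5 and of Mcm6.
Mki67: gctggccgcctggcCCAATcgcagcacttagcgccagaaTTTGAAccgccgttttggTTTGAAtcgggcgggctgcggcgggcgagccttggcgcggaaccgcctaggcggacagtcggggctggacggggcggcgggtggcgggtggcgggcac
Top2a: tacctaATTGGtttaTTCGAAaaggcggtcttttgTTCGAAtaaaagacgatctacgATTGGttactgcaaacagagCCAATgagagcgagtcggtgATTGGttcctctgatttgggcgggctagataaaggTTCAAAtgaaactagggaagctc
Cdk1: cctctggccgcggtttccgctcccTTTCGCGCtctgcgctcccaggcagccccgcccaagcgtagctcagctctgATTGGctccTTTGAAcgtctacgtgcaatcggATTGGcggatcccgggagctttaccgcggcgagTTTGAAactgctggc
Mcm5: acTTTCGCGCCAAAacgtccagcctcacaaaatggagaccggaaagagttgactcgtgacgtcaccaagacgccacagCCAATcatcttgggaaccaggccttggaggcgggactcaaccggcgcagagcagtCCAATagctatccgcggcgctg
Mcm6: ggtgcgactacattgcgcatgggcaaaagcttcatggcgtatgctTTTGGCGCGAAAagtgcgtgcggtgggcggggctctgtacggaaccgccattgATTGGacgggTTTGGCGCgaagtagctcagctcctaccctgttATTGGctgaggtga
These 5 genes were chosen for display after their values were seen.

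Promoter windows, from 250 bases before to 50 bases after the start, were given for 37 of the 43 members. CHR letters were found in 62.2% of these genes, beside 21.7% of all 27025 genes with a window. CCAAT letters were found in 78.4% of members and 41.1% of all genes, and E2F letters in 16.2% of members and 2.6% of all genes. Among the members of mitosis, CHR letters were present in 76.9% of 26 genes and E2F letters in 3.85%. Among the members of replication, with the E2F factors themselves, CHR letters were present in 27.3% of 11 genes and E2F letters in 45.5%. The E2F letters were found in Cdk1, Mcm3, Mcm5, Mcm6, Mcm7 and Uhrf1. A match of letters is a description of the window and does not show binding.

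All 43 members were higher in eWAT adipocytes than in iWAT adipocytes, and all were lower in BAT than in eWAT adipocytes. Against iWAT adipocytes, 42 were lower in BAT and Cenpa did not pass the test. Mki67, which encodes the Ki-67 protein of dividing cells, had a median of 4.33 RPKM in iWAT adipocytes (3.41 to 7.14). It had 14.3 to 25.0 RPKM in eWAT adipocytes (median 18.3) and 0.332 to 0.664 RPKM in BAT (median 0.555). Every eWAT sample was above every iWAT sample and every iWAT sample above every BAT sample, so no samples of different tissues overlapped. The mean level of the median member was 1.39 RPKM for iWAT adipocytes, with a range over members of 0.304 to 13.4. It was 3.12 (0.708 to 31.0) for eWAT adipocytes and 0.221 (0.0370 to 2.75) for BAT. Of the members, 26 reached a mean of 1 RPKM in iWAT adipocytes and 41 did so in eWAT adipocytes. BAT had 4, where Pcna, Ccna2, Mcm7 and Kif20a passed. The rows of these 4 overlap rows of other symbols, so their counts cannot be given to these genes alone. The Ccna2 row overlaps Bbs7 and Exosc9, the Pcna row overlaps LOC100503576, and those of Mcm7 and Kif20a are described below. In BAT, 37 members had more than 3 reads in every sample, and Pbk had the fewest reads, 1 in sample 16. In the map of all members by sample, every row is brightest in the 6 eWAT columns.

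**Figure D1:**
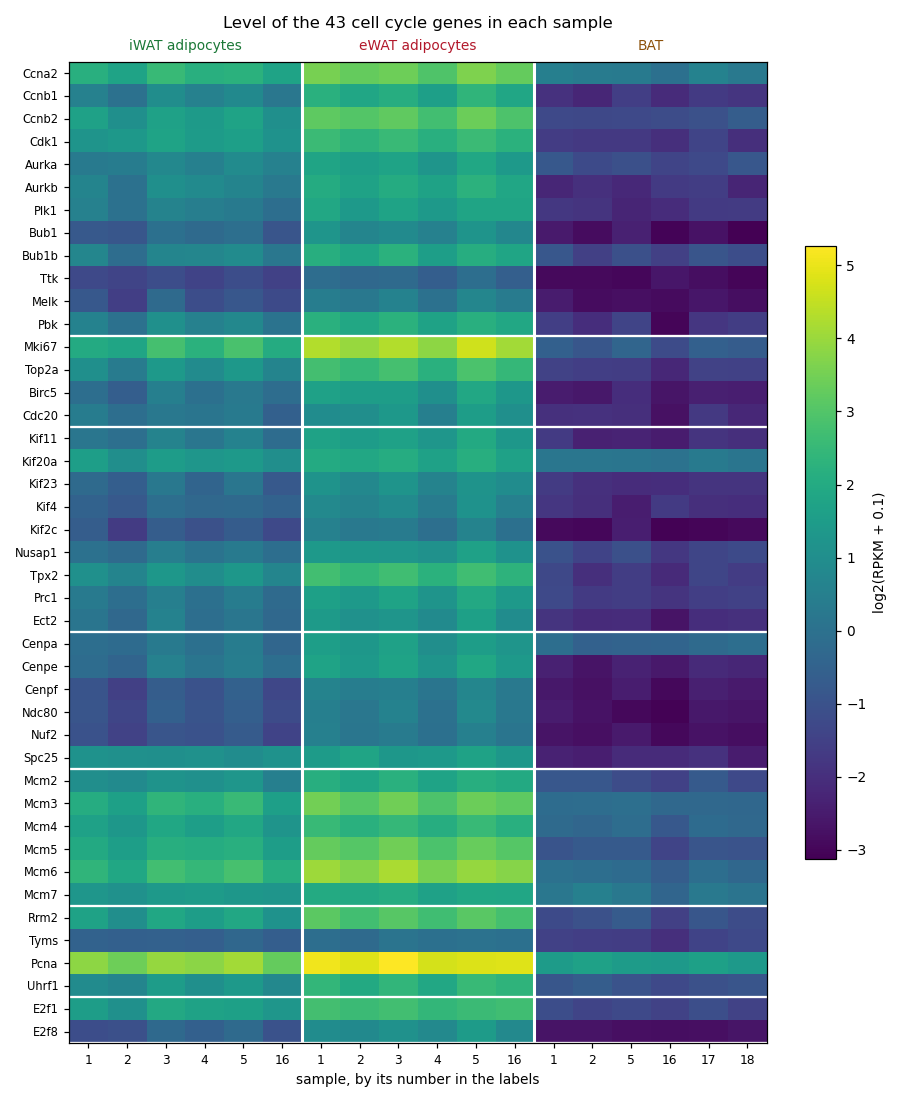
Level of each of the 43 members (rows, in 7 groups by role, separated by white lines) in each of the 18 samples (columns, by number in the labels), as log2(RPKM + 0.1). Pcna and Mki67 stand out as the brightest rows in eWAT adipocytes, with means of 31.0 and 18.6 RPKM, and the BAT columns are the darkest, with the least contrast to the iWAT columns in Cenpa (means of 0.720 and 0.930 RPKM).

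Because these are bulk samples, fewer dividing cells and less RNA per dividing cell cannot be told apart in any of the comparisons. The tissues also differed in markers of other cell types. All 7 macrophage markers with a row (Cd68, Emr1, Csf1r, Itgam, Lyz2, Trem2 and Mrc1) were higher in eWAT than in iWAT adipocytes and higher in both than in BAT. Their summed level lay at 2553 to 4126 RPKM in eWAT, at 453 to 891 RPKM in iWAT and at 24.8 to 49.7 RPKM in BAT samples, and none of the 7 was at 0 in any tissue mean. Itgax, a marker of dendritic cells and of some macrophages, was likewise 5.49-fold higher in eWAT than in iWAT adipocytes. It was 168-fold higher in eWAT adipocytes than in BAT. The dendritic cell markers Flt3 and Cd209a were too low to be tested, and their samples overlapped between the tissues. Their means were lowest in eWAT, at 0.0141 and 0.125 RPKM, beside 0.0260 and 0.176 in iWAT and 0.0231 and 0.216 in BAT. The mesothelial markers Msln and Upk3b had 5 to 39 and 21 to 126 reads per eWAT sample, beside 0 to 1 and 0 to 4 in iWAT samples and 0 to 1 of each in BAT samples. Both were called higher in eWAT adipocytes in either comparison. The sum of 6 fibroblast and progenitor markers was highest in iWAT samples (520 to 663 RPKM). It was 150 to 272 RPKM in eWAT and 34.5 to 56.5 RPKM in BAT samples. Most of the iWAT sum was Dpt, with a mean of 476 RPKM beside 581 RPKM for the sum. Between the white depots, 2 of the 6 were called higher in iWAT adipocytes and 4 did not pass. Against BAT, 3 were higher in iWAT adipocytes, whereas Pdgfra and Pi16 were higher in BAT. Of 6 endothelial markers, 5 were higher in iWAT than in eWAT adipocytes, and their summed level was 108 to 310 RPKM in the former, 38.02 to 79.98 RPKM in the latter and 76.5 to 111 RPKM in BAT. The sum of 4 adipocyte markers lay between 2605 and 3840 RPKM in iWAT, between 517 and 1812 RPKM in eWAT and between 629 and 824 RPKM in BAT samples. Samples 1 and 3 of eWAT adipocytes had the lowest adipocyte sums of that depot (703 and 517 RPKM, beside 1303 to 1812 in the other 4). Ucp1, the uncoupling protein that marks brown adipocytes, had a mean of 1858 RPKM in BAT, beside 2.26 RPKM in iWAT and 0.261 RPKM in eWAT adipocytes. All 3 red cell markers and all 3 skeletal muscle markers were called higher in BAT than in both white depots. The muscle sum varied widely between BAT samples, from 1.18 RPKM in sample 2 to 91.1 RPKM. It overlapped the sums of iWAT (3.77 to 15.9 RPKM) and eWAT samples (1.14 to 4.83 RPKM). All 4 adipocyte markers were higher in iWAT than in eWAT adipocytes. The part of these cell type differences in the results below was not tested.

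To compare the white depots, counts were tested with edgeR's quasi-likelihood test. All 43 members were higher in eWAT adipocytes (adjusted p from Benjamini-Hochberg over all genes of at most 0.0013), where 34.5% of all 19623 genes tested were called in this direction and 68.6% in either. The samples of the depots did not overlap for 43 of 43 members, beside 44.0% of all genes. The median member was 2.64-fold higher in eWAT adipocytes, a median log2 fold change (iWAT over eWAT) of -1.40 beside 0.00143 for all genes tested. Without eWAT samples 1 and 3, all 43 were still called, with a median log2 fold change of -1.34. All 43 were also lower in iWAT within each sequencing lane, with median differences in log2(RPKM + 0.1) of -1.07 in lane 1 (2 iWAT and 4 eWAT samples) and -1.45 in lane 2 (4 and 2 samples).

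The largest differences between the white depots were those of Mki67, E2f8, Top2a and Ccnb2. Mki67 was 3.71-fold higher in eWAT adipocytes (log2 fold change, iWAT over eWAT, -1.89 ± 0.19 SE, adjusted p = 2.8e-06 in edgeR). E2f8, a repressor that acts late in S phase, had a median of 0.495 RPKM in iWAT (0.358 to 0.754) and of 1.78 RPKM in eWAT adipocytes (1.67 to 2.72). It was 3.62-fold higher in eWAT adipocytes, and the difference exceeded the spread of both depots. Top2a, the topoisomerase that untangles sister chromosomes, had a median of 1.87 RPKM in iWAT (1.204 to 2.58) and of 6.02 RPKM in eWAT adipocytes (4.49 to 7.32). It was 3.14-fold higher there, as was Ccnb2, a B-type cyclin of mitosis, whose mean went from 2.67 ± 0.57 to 8.42 ± 1.36 RPKM (SD, n = 6).

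The groups by role all moved the same way between the white depots, with median folds between 2.15 and 3.09. The 4 genes of the chromosome and of exit from mitosis (Mki67, Top2a, Birc5 and Cdc20) had a median fold of 3.09. The 12 mitotic kinases and cyclins had 2.71, and Ccna2, the A-type cyclin with the highest level among them, had 4.27 ± 0.92 RPKM in iWAT and 10.3 ± 1.69 RPKM in eWAT adipocytes. The 6 centromere and kinetochore genes had 2.87 and the 9 spindle genes 2.52. Tpx2, which starts microtubule growth at the spindle and was the highest of these 9 in eWAT adipocytes, had 1.95 ± 0.40 and 5.64 ± 0.85 RPKM. No role group held a member of the opposite direction.

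Of the groups by role, the helicase and the genes of the fork had the lowest median folds in this comparison. The 6 subunits of the MCM helicase had a median fold of 2.15. Mcm6, the most abundant of them in both white depots, had a median of 5.29 RPKM in iWAT (3.53 to 6.97) and of 14.3 RPKM in eWAT adipocytes (11.7 to 18.2). The 4 genes for nucleotide supply, the clamp and the upkeep of methylation at the fork (Rrm2, Tyms, Pcna and Uhrf1) had 2.32. Pcna, the sliding clamp and the most abundant member in each tissue, had a median of 14.0 RPKM in iWAT (9.63 to 16.9) and of 29.1 RPKM in eWAT adipocytes (26.6 to 38.4). E2f1, an activator of replication genes, had 2.86 ± 0.62 and 6.12 ± 0.49 RPKM, a fold of 2.13, and the median fold of E2f1 and E2f8 was 2.78. The difference of folds between role groups was not tested.

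The smallest differences between the white depots were those of Spc25, Tyms, Mcm7 and Kif20a, named after their values were seen. Spc25, a kinetochore subunit, was 1.36-fold higher in eWAT adipocytes (log2 fold change -0.44 ± 0.10 SE, adjusted p = 0.0013 in edgeR). Its row on mm9 (chr2:68952598-69044251, minus strand) has 13.4% of its length in the GENCODE gene (chr2:69031952-69044251) and overlaps Nostrin, so the count cannot be given to Spc25 alone. Tyms, thymidylate synthase, differed 1.46-fold. Mcm7 and Kif20a, a kinesin of the late spindle, differed 1.53-fold and 1.54-fold, and their rows overlap those of Ap4m1 and Cops6 and of Brd8 and Cdc23. Rows of 15 members overlapped a row of another symbol and those of 28 did not, and no source gives the strand of the library, so overlapping reads cannot be told apart. The median log2 fold change over the 28 was -1.42. The row used for Nusap1, a microtubule binding protein of the spindle, is a 1-exon row on the strand opposite to the gene (chr2:119472564-119475962). With the 11-exon row on the strand of the gene, its log2 fold change was -1.34 beside -1.31.

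**Figure D2:**
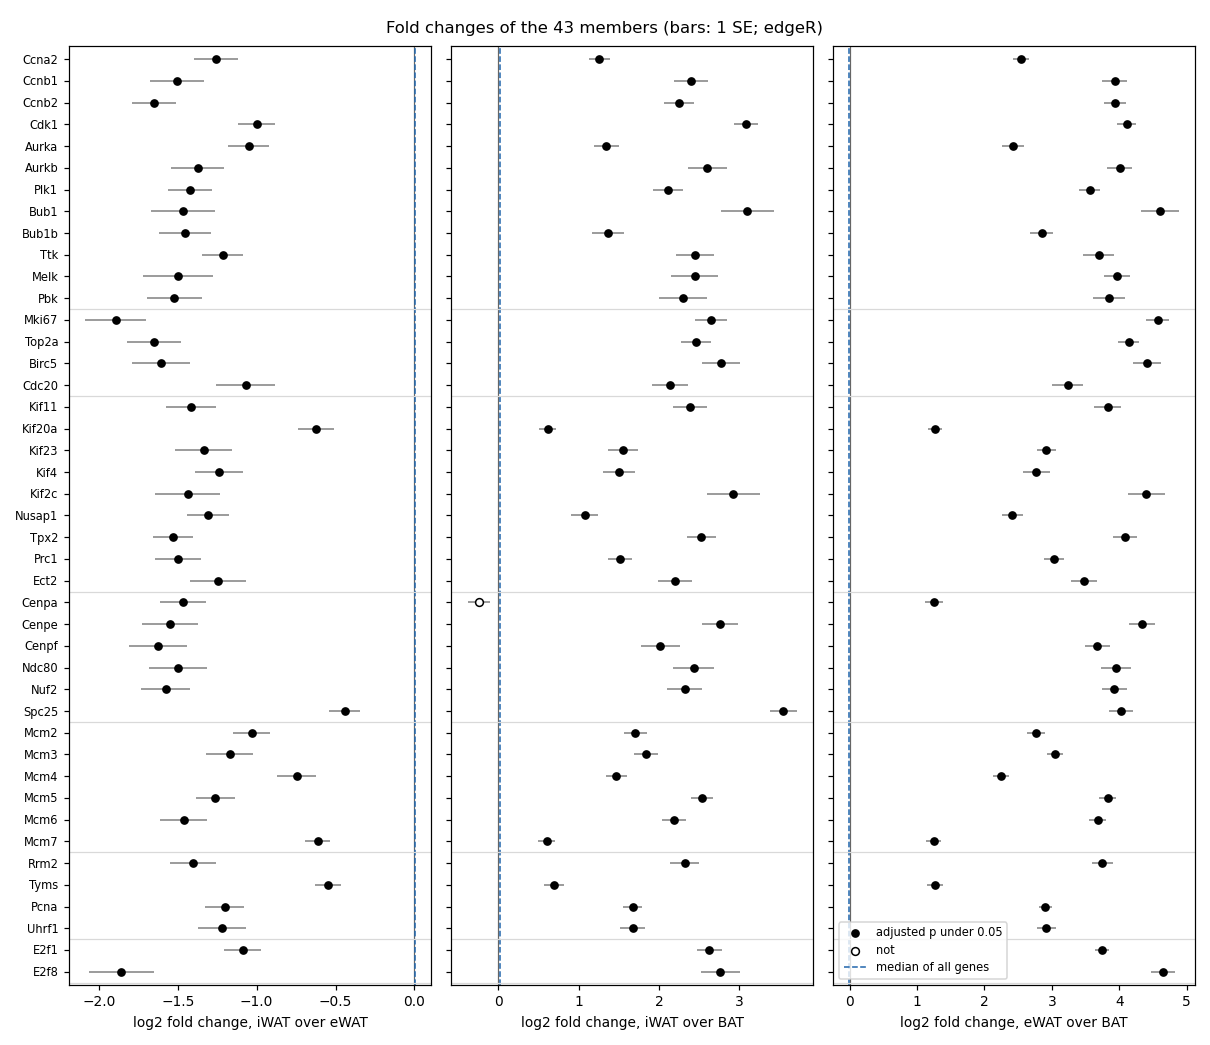
Log2 fold change of each member (rows, by role) in the 3 comparisons, with bars of 1 SE from edgeR, filled where the adjusted p was under 0.05; the dashed line is the median of all genes. All points lie left of 0 for iWAT over eWAT and right of 0 for eWAT over BAT, and Cenpa alone is open and left of 0 for iWAT over BAT.

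Against BAT, 42 of 43 members were higher in iWAT adipocytes, where 38.1% of all 19745 genes were called in this direction and 75.3% in either. The samples did not overlap for these 42, beside 65.3% of all genes. The median member was 4.76-fold higher in iWAT adipocytes (log2 fold change 2.25, beside 0.01 for all genes). Without the TMM scaling between libraries, which sets the median gene near 0, the median of all genes was 0.87 and 81.8% of called genes were higher in iWAT, beside 50.6% with it. The members' median was then 3.10. RPKM carries no such scaling, so ratios of RPKM to BAT are larger than the folds given here.

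Spc25, Bub1, Cdk1 and Kif2c had the largest differences between iWAT adipocytes and BAT. Spc25, with the limit of its row given above, was 11.7-fold higher in iWAT adipocytes. Bub1, a kinase of the spindle checkpoint, had 0.429 to 0.886 RPKM in iWAT adipocytes and 0.0147 to 0.0959 in BAT, the latter from 3 to 15 reads. Its log2 fold change of 3.10 ± 0.33 SE was among the less precise ones. Cdk1, the kinase that drives entry into mitosis, had 2.104 to 3.29 RPKM in iWAT adipocytes (median 2.55) and 0.152 to 0.278 in BAT (median 0.203). It was 8.48-fold higher in iWAT adipocytes (log2 fold change 3.08 ± 0.16 SE, adjusted p = 7.5e-11 in edgeR). Kif2c, a kinesin that takes microtubules apart at centromeres, was 7.60-fold higher on 2 to 10 reads per BAT sample.

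Mki67 and Top2a were 6.27-fold and 5.503-fold higher in iWAT adipocytes than in BAT. The median folds by role were 6.47 for E2f1 and E2f8, 5.87 for the genes of the chromosome and mitotic exit, 5.18 for centromere and kinetochore genes and 5.08 for mitotic kinases and cyclins. They were 3.41 for the helicase, 3.18 for the genes of the fork and 2.93 for the spindle genes. Mcm7, Kif20a, Tyms and Nusap1, again named after their values were seen, had the smallest differences among the members called, at 1.52-fold, 1.53-fold, 1.61-fold and 2.11-fold. With its sense row, Nusap1 had a log2 fold change of 1.80 in place of 1.08.

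Cenpa, the histone variant that marks centromeres, was the only member that did not pass the test in this comparison. It had 0.690 to 1.23 RPKM in iWAT adipocytes (median 0.867) and 0.602 to 0.843 in BAT (median 0.704), and the samples overlapped. Its log2 fold change (iWAT over BAT) was -0.25 ± 0.14 SE (adjusted p = 0.12 in edgeR). The sign turned without TMM scaling, to 0.62 (adjusted p = 0.0014), and with limma on log2(RPKM + 0.1), to 0.31 (adjusted p = 0.058). Without BAT sample 2, iWAT sample 3 or iWAT sample 5 the call was gained in the direction of BAT, with log2 fold changes of -0.32, -0.34 and -0.32. The Cenpa row (chr5:30969150-30980178 on mm9, plus strand) runs past the GENCODE gene, which ends at 30977200, and has 8835 bases of transcript beside 2503 exonic bases in the annotation.

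All 43 members were higher in eWAT adipocytes than in BAT, where 41.1% of all 20076 genes were called in this direction and 82.5% in either. The samples did not overlap for 43 of 43, beside 68.4% of all genes. The median member was 12.9-fold higher in eWAT adipocytes (log2 fold change 3.69, beside -0.02 for all genes). Without TMM scaling the median of all genes was 0.89, 76.1% of called genes were higher in eWAT adipocytes beside 49.8% with it, and the members' median was 4.58. Without eWAT samples 1 and 3, 43 were called and the median was 3.63. These eWAT and BAT samples also entered the comparisons above, so the comparisons are not independent of each other.

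E2f8, Bub1, Mki67 and Birc5 had the largest differences between eWAT adipocytes and BAT. E2f8 was 25.1-fold higher (log2 fold change 4.65 ± 0.17 SE), on 6 to 14 reads per BAT sample. Bub1 and Birc5, the survivin protein of the chromosomal passenger complex, were 24.3-fold and 21.3-fold higher. Mki67 was 23.7-fold higher in eWAT adipocytes (log2 fold change 4.57 ± 0.17 SE, adjusted p = 2.5e-12 in edgeR), on 3837 to 8179 reads per eWAT sample and 77 to 209 per BAT sample. Mcm7, Cenpa, Tyms and Kif20a, named after their values were seen, had the smallest differences, between 2.37-fold and 2.40-fold. The median folds by role were 19.4 for the chromosome and mitotic exit, 18.3 for E2f1 and E2f8, 15.3 for centromere and kinetochore and 14.8 for mitotic kinases and cyclins. They were 8.21 for spindle genes, 7.52 for genes of the fork and 7.47 for the helicase.

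**Figure D3:**
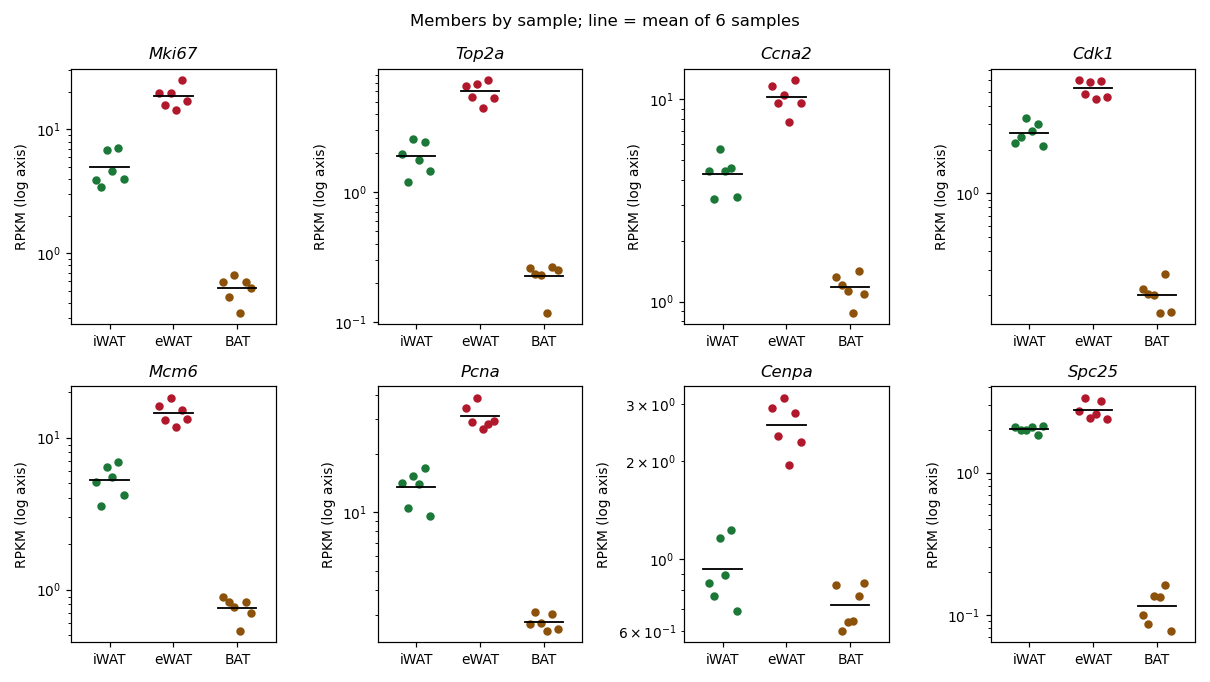
RPKM (log axis) of 8 members in the 6 samples of each tissue, with a line at the mean. Mki67, Top2a, Ccna2, Cdk1, Mcm6 and Pcna form 3 separate levels, the iWAT and BAT samples of Cenpa overlap, and the iWAT samples of Spc25 lie between 1.84 and 2.14 RPKM, close to the lowest eWAT sample at 2.40.

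Other genes of the cell cycle, 63 in a list made from textbook roles, were also counted. Between the white depots, 48 of the 63 were higher in eWAT and 5 in iWAT adipocytes, beside 34.5% and 34.1% of all genes tested, and 10 did not pass the test. All 19 rows under the symbols of other genes of mitosis were higher in eWAT adipocytes. The row under Stmn1 is among the 19 and the 63 but has 0.0% of its length in the GENCODE gene of that name, which lies elsewhere on its chromosome, so it does not measure Stmn1. Among the others was Hmmr, a spindle protein, with a log2 fold change (iWAT over eWAT) of -1.67. Of 16 other genes of replication origins and forks, 14 were higher in eWAT and Orc6, an origin subunit, was higher in iWAT. Against BAT, iWAT adipocytes had the higher level for 40 of 62 tested and BAT for 11, whereas eWAT adipocytes had it for 49 of 63 and BAT for 7. Of all genes tested, 38.1% were called higher in iWAT adipocytes than in BAT and 41.1% higher in eWAT adipocytes than in BAT. Cdt1, which loads the helicase, and Cdca8, a passenger complex subunit, were among the 3 with the largest log2 fold changes of iWAT over BAT, at 2.83 and 2.89. Cdt1 and Hmmr were 4.26 and 4.36 higher in eWAT adipocytes than in BAT on the log2 scale.

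Between the white depots, cyclins and kinases of the G1 phase, which set entry into the cycle, were called in both directions. Of these 8 genes, 3 were higher in eWAT adipocytes, 2 were lower there and 3 did not pass. These shares were near those of all genes, 34.5% and 34.1%. Against BAT, the eWAT level was the higher one for 6 of the 8 and the lower one for 1. The shares of all genes in these directions were 41.1% and 41.4%. The iWAT level was above that of BAT for 3 of the 8 and below it for 1, beside 38.1% and 37.2% of all genes. Cdk6, a partner of the D-type cyclins, had the largest difference of the list, a log2 fold change (iWAT over eWAT) of -2.15, and was also lower in iWAT adipocytes than in BAT (-1.31). The Cdk6 row has 2 exons, covers 40.8% of the gene, runs past its end and overlaps AK038004 and AK090109, so its count cannot be given to Cdk6 alone. Ccnd2 and Ccnd3, D-type cyclins, were higher in iWAT than in eWAT adipocytes (log2 fold changes 0.70 and 1.02), and Ccnd2 had the largest difference of the list between iWAT adipocytes and BAT (3.07). Ccnd3 was lower in eWAT adipocytes than in BAT (-0.84), with 0.07 without TMM scaling. Of 10 other E2F and mitotic transcription factors, 8 were higher in eWAT than in iWAT adipocytes and 2 did not pass. The eWAT level exceeded that of BAT for 6 of the 10 and was lower for 2, and the iWAT level did so for 5 and was lower for 4. E2f2, an activator E2F, was higher in BAT than in both white depots (log2 fold changes of -2.30 for iWAT and -1.70 for eWAT over BAT). E2f6, a repressor, was likewise lower in eWAT adipocytes than in BAT (-0.88), with 0.03 without TMM scaling, and 54.8% of its row lies in the gene.

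The 7 inhibitors of cyclin-dependent kinases were also called in both directions. Between the white depots, 3 were higher in eWAT and 2 in iWAT adipocytes, near the shares of all genes, 34.5% and 34.1%. Against BAT, 3 of 6 tested were higher in iWAT adipocytes and 2 in BAT, beside 38.1% and 37.2% of all genes. For eWAT against BAT these were 4 and 2 of 7, beside 41.1% and 41.4%. Between the white depots, Cdkn2a, Cdkn1c and Cdkn1a were higher in eWAT adipocytes (log2 fold changes, iWAT over eWAT, of -1.79, -0.89 and -0.32), and Cdkn2b and Cdkn2c were higher in iWAT adipocytes (0.75 and 1.07). The call for Cdkn1a (adjusted p = 0.044 in edgeR) was lost in 13 of 24 alternatives (adjusted p of 0.050 to 0.30), among them the fits without eWAT sample 3, 4, 5 or 16 and without iWAT sample 1, 2, 3 or 16. Cdkn1b and Cdkn2d did not pass, with 0.13 and -0.06. Against BAT, Cdkn1a and Cdkn2b were higher in both white depots, with log2 fold changes of 1.49 and 2.70 for iWAT and 1.84 and 1.97 for eWAT. Cdkn2a, which encodes the p16 and p19 proteins, had 23 to 60 reads in eWAT, 3 to 17 in iWAT and 0 to 2 in BAT samples, and was called for eWAT against BAT but was too low to be tested for iWAT against BAT. Cdkn2c was higher in iWAT adipocytes than in BAT (0.89) and Cdkn2d higher in eWAT adipocytes than in BAT (0.25). Cdkn2c for eWAT over BAT had -0.16 and Cdkn2d for iWAT over BAT had 0.15, which did not pass. The latter was called without TMM scaling (1.003, adjusted p = 1.1e-06 in edgeR) and with limma on log2(RPKM + 0.1), at 0.75. Cdkn1c and Cdkn1b were higher in BAT than in iWAT adipocytes (-1.43 and -0.45) and than in eWAT adipocytes (-0.51 and -0.55), and without TMM scaling the sign of Cdkn1b turned in both comparisons and that of Cdkn1c in that with eWAT. The call of Cdkn1c for eWAT against BAT (adjusted p = 0.047 in edgeR) was also lost, with adjusted p of 0.051 to 0.099, in 10 of 23 alternatives. Among these were the fits without BAT sample 1, 2, 16 or 17 and without eWAT sample 2, 4, 5 or 16.

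Within a tissue, the members varied together from sample to sample in the white depots. The median Pearson correlation over the 903 pairs of members, on log2(RPKM + 0.1) across 6 samples, was 0.84 within iWAT, 0.86 within eWAT and 0.45 within BAT samples. These are descriptions, since the pairs share samples and read depth, and no median over pairs of other genes is given beside them. The fewest reads of a member in a sample were 27 in iWAT, 70 in eWAT and 1 in BAT. The value for BAT is therefore not on a like footing with those of the white depots. To ask whether the members followed macrophage or endothelial content, each was correlated with Cd68, a lysosomal protein of macrophages, and with Cdh5, the cadherin of endothelial junctions, within each tissue. The median of Cd68 was 138 RPKM in iWAT (101 to 185), 544 RPKM in eWAT (457 to 681) and 3.31 RPKM in BAT samples (2.04 to 4.01). The median of Cdh5 was 99.3 RPKM in iWAT (62.5 to 177), 29.7 RPKM in eWAT (21.1 to 44.4) and 45.8 RPKM in BAT samples (34.5 to 54.7). Cd68 was 4.03-fold higher in eWAT than in iWAT adipocytes, and Cdh5 was 3.58-fold higher in iWAT than in eWAT adipocytes.

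With Cd68, the median correlation of the members was 0.83 in iWAT adipocytes, beside 0.08 for the 19376 genes whose mean count reached 10 there. It was positive for 42 of 43 members, beside 55.6% of all genes. Cenpe, a kinesin of kinetochores, had the highest r (0.99, exact permutation p = 0.0014, adjusted p = 0.18, with the same rank order as Cd68 and a p for rho of 0.0028, adjusted p = 0.24). For Mki67, r was 0.93 (exact permutation p = 0.0069, adjusted p = 0.26) and rho 0.94 (p = 0.017, adjusted p = 0.43), and r was 0.86 on leaving out the 2 samples with Cd68 farthest from its median. Top2a had r = 0.85 (exact permutation p = 0.038, adjusted p = 0.41) and rho = 0.83 (p = 0.058, adjusted p = 0.43), and 0.56 without those 2 samples. Spc25 was the only member below 0 (-0.44). Over the 258 correlations computed, an exact p under 0.05 was reached by 21 members here and by none after adjustment. The share of all genes at that p is not given here, and members that vary together are not separate results. The smallest p that 720 pairings can give is 0.0014.

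In eWAT adipocytes, the median correlation with Cd68 was 0.58, beside 0.16 for all genes, and 42 of 43 members were above 0, beside 56.5% of all genes. Pcna had the highest r (0.87, exact permutation p = 0.029, adjusted p = 0.41; rho = 0.83, p = 0.058, adjusted p = 0.43), which was 0.14 after the 2 samples with Cd68 farthest from its median were left out. Those are samples 1 and 3, the samples with the lowest adipocyte markers, and without them the median over the members was 0.40. Without sample 5 it was 0.82. Mki67 had r = 0.48 (exact permutation p = 0.35, adjusted p = 0.56) and rho = 0.60 (p = 0.24, adjusted p = 0.62). Its highest value, 25.0 RPKM in sample 5, stood beside a Cd68 level of 540 RPKM, near the median of the depot. In BAT, the median with Cd68 was 0.29, beside 0.32 for all genes, and it became -0.30 without sample 16 and 0.62 without sample 1.

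**Figure D4:**
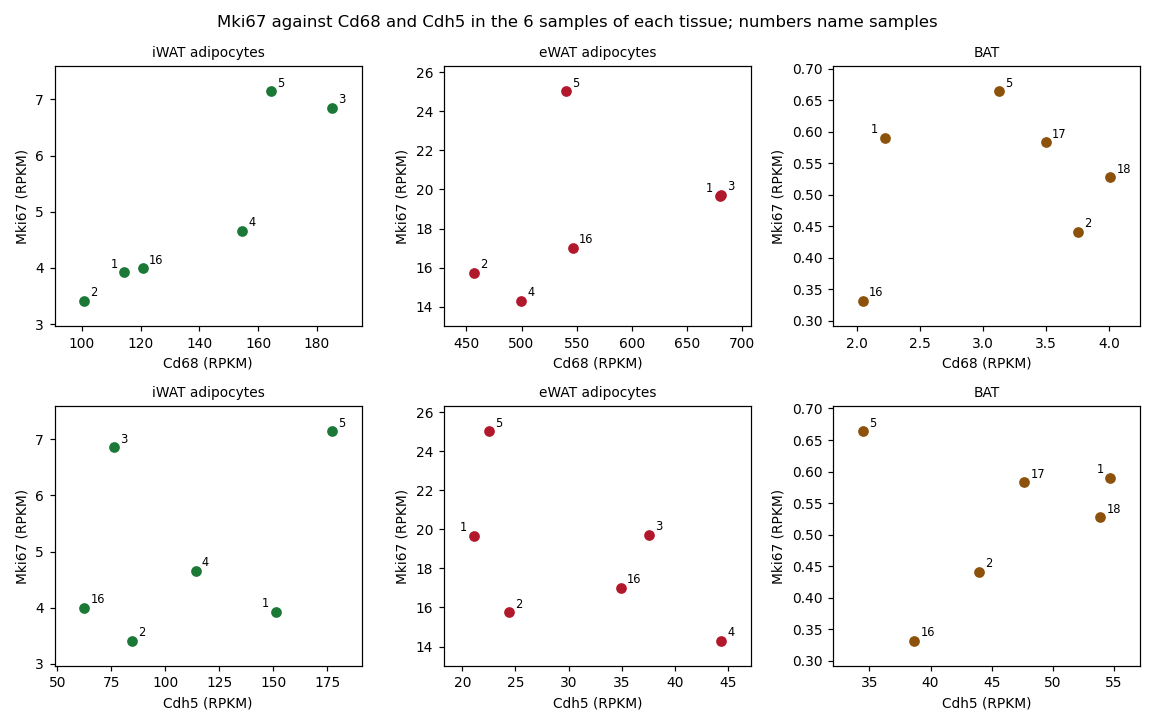
Mki67 against Cd68 (top) and Cdh5 (bottom), in RPKM, in the 6 samples of each tissue, with sample numbers. In iWAT adipocytes Mki67 is highest in samples 3 and 5, which also have the highest Cd68, while sample 3 has 76.4 and sample 5 has 177 RPKM of Cdh5.

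With Cdh5, the medians of the members were 0.46 within iWAT, -0.57 within eWAT and 0.34 within BAT samples, beside 0.28, -0.01 and 0.33 for all genes. In eWAT adipocytes, 42 of 43 members were below 0, where 49.3% of all genes were above 0, and Tyms, at 0.38, was the exception. Birc5 had the lowest r there (-0.83, exact permutation p = 0.032, adjusted p = 0.41). In iWAT adipocytes 42 members were above 0, beside 62.6% of all genes, and in BAT 33 were, beside 70.2%. The median in eWAT adipocytes was -0.28 without sample 4. After the 2 samples with Cdh5 farthest from its median were left out it was -0.20, and that in iWAT adipocytes was 0.22. In iWAT adipocytes it moved from 0.19 without sample 16 to 0.86 without sample 3, so its size rested on single samples. In BAT it was 0.16 without sample 16 and 0.66 without sample 5. Plk1, a mitotic kinase, had r = 0.94 with Cdh5 in BAT (exact permutation p = 0.0083, adjusted p = 0.27), on 6 to 16 reads per sample. None of the 129 correlations with Cdh5 passed after adjustment. Cd68 and Cdh5 themselves had r = 0.16, -0.08 and 0.17 in the 3 tissues (exact permutation p = 0.75, 0.85 and 0.73). Each lane held at most 4 samples of a tissue, too few for a correlation within lanes.

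**Figure D5:**
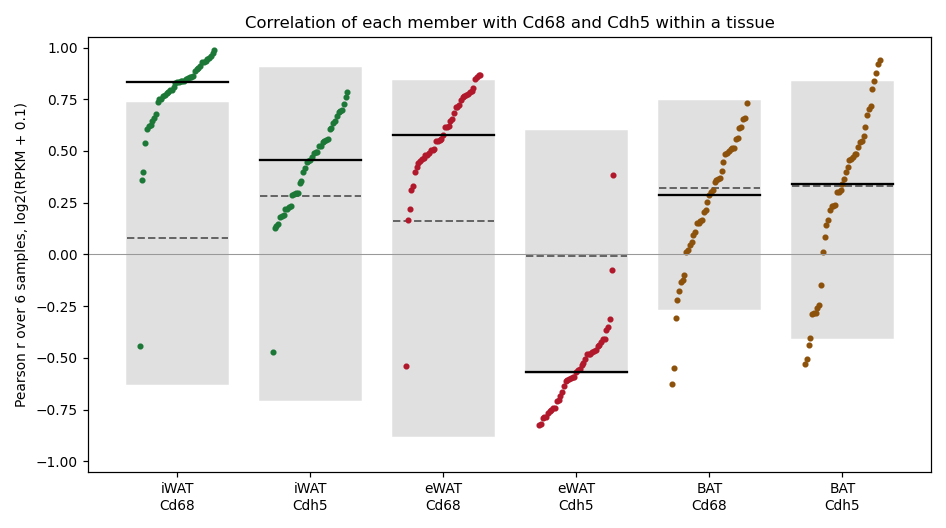
Pearson r of each member (dots, sorted) with Cd68 and Cdh5 over the 6 samples of each tissue; the solid line is the median of members, the dashed line that of all genes and the grey box spans the 10th to 90th percentile of all genes. For Cd68 in iWAT adipocytes the medians are 0.83 and 0.08, and in BAT they are close together for either marker; the box is a spread of single genes and no measure for a median of members that vary together.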

How the data were processed

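RNA of 18 samples was prepared by the authors with a NEBNext Ultra kit and sequenced on an Illumina instrument. The processing notes of the submitters name cutadapt 1.16, HISAT2 2.1.0 and the mouse build mm9 (NCBIM37). The counting program, its annotation and its treatment of strand and of reads with several positions are not given in the sources used here. The deposited files give a raw read count per transcript row and, beside it, the RPKM computed by the authors, for 53445 rows. RPKM holds the share of a library and carries no scaling for composition.

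Counts were tested as deposited with edgeR 4.0.16 (R 4.3.3) by the quasi-likelihood F test with TMM scaling, after a filter on a mean count of at least 10. Each pair of tissues was fitted on its own 12 samples, and p-values were adjusted over all genes by the Benjamini-Hochberg method, with calls under 0.05. The SE is the log2 fold change divided by the square root of F. TMM factors averaged 1.21 in iWAT, 1.27 in eWAT and 0.658 in BAT. Correlations used log2(RPKM + 0.1) and two-sided exact permutation tests over 6 samples. Alternatives were DESeq2 1.42.0, limma 3.58.1 on log2(RPKM + 0.1) and log2(RPKM + 1), no TMM, no filter, summed rows, 1 fit of all samples, lane as a covariate (white depots only, since BAT shares no lane with them), a replicate block and each sample left out. Those named for Nusap1, lanes and eWAT samples 1 and 3 were chosen after the data were seen. Python 3.11.15 and scipy 1.17.1 were used, and the fits were tested on simulated data.

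The members and gene lists were chosen with earlier results of these data known. The rule for named genes took Mki67 and Top2a, the most abundant member of each role, the 4 members called with the largest log2 fold change in each direction of a comparison, members not called, all inhibitors of cyclin-dependent kinases, the 3 extremes on each side among the other cell cycle genes and the cell type markers. Other genes named were chosen after their values were seen. Counts of every pair of libraries in a group differed by more than sampling noise, with a chi-square over its degrees of freedom of 15.4 or more.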

Additional observations from a re-analysis of the deposited data

Results flagged for a closer look

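In 8 of the 135 groups of 6 samples examined, 1 sample stood apart from the other 5 by Dixon's test, where chance gives about 1 in 20. In BAT these were levels built on few reads. Ccnb2 was 0.533 RPKM in BAT sample 18 (28 reads), beside 0.303 to 0.385 in the others. Birc5 and Kif2c were high in BAT sample 5, at 0.147 RPKM (18 reads) and 0.0884 RPKM (10 reads), beside 0.0611 to 0.0903 and 0.0188 to 0.0327. Top2a, Ect2 and Mcm5 were low in BAT sample 16, at 0.118 RPKM (32 reads), 0.0560 RPKM (6 reads) and 0.274 RPKM (22 reads), beside 0.228 to 0.265, 0.133 to 0.175 and 0.411 to 0.491. That sample also had the lowest TMM factor of the 18, 0.536. In iWAT adipocytes, Tyms was 0.709 RPKM in sample 5 (146 reads), beside 0.550 to 0.609. In eWAT adipocytes, E2f8 was 2.72 RPKM in sample 5 (511 reads), beside 1.67 to 2.07.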

How the results depend on the processing

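The number of members called was 37 to 43 between the white depots over the 25 alternatives, 39 to 43 for iWAT against BAT over 23 and 43 for eWAT against BAT over 24. The lowest counts came with a minimum log2 fold change of 1, for which the share of all genes called is not given here. Leaving out 1 sample gave 43, 42 to 43 and 43 called, with 0 to 1 members (Cenpa) higher in BAT than in iWAT adipocytes, and median log2 fold changes of -1.49 to -1.31, 2.13 to 2.30 and 3.65 to 3.76. The median log2 fold change moved with limma on log2(RPKM + 1) to -0.89, 0.85 and 1.79 in the same order, and for eWAT against BAT with limma on log2(RPKM + 0.1) to 3.34, since a pseudocount shrinks low levels. It was -1.07 within lane 1. Without TMM it was 3.10 for iWAT and 4.58 for eWAT against BAT.

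Signs turned in comparisons with BAT. Cenpa for iWAT over BAT became 0.62 without TMM, 0.31 with limma on log2(RPKM + 0.1) and 0.16 with limma on log2(RPKM + 1), and Cdkn1b became 0.41, 0.14 and 0.12. For eWAT over BAT and the same settings, Cdkn1b became 0.36, 0.0319 and 0.0282, Cdkn1c 0.40, 0.0019 and 0.0098, and Cdkn2c 0.74, 0.43 and 0.39. E2f6 became 0.0284 and Ccnd3 0.0698 without TMM, and Cdkn2c became 0.0606 without eWAT samples 1 and 3. Cdkn2d for iWAT over BAT was called without TMM (1.003) and with limma (0.75 and 0.61).

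Median correlations moved most. Without the 2 farthest samples, that with Cd68 was 0.62 in iWAT, 0.40 in eWAT and -0.16 in BAT, and that with Cdh5 was 0.22, -0.20 and 0.67. On TMM-scaled RPKM, BAT had -0.14 with Cd68 and -0.020 with Cdh5. Leaving out 1 sample gave 0.73 to 0.93, 0.53 to 0.82 and -0.30 to 0.62 for Cd68, and 0.19 to 0.86, -0.83 to -0.28 and 0.16 to 0.66 for Cdh5. The cause of the moves was not tested.

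The labels do not say that a number marks 1 mouse, and the deviations of samples with the same number had mean correlations of -0.00498, -0.0137 and 0.0135 in the 3 comparisons. Samples correlated best with their own number in 1 of 6, 1 of 4 and 2 of 4 cases. With the replicate block, 43, 42 and 43 members were called, with median log2 fold changes of -1.42, 2.20 and 3.76. The call of Cdkn2d for eWAT against BAT was lost with the block (0.22, adjusted p = 0.21 in edgeR) and on the same samples without it (0.21, adjusted p = 0.16). Of all genes, 12836, 12486 and 15146 were called with the block, beside 13454, 12949 and 15456 on the same samples without it. With no filter on counts, 14431, 19467 and 22026 genes were called. In BAT, levels of 1 to 3 reads limit Bub1, Ttk, Pbk, Cdc20, Kif2c and Ndc80.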

Other observations

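Per 100 RPKM of Cd68, the level of Mki67 was 3.53 ± 0.46 RPKM in iWAT adipocytes (SD, n = 6, 3.02 to 4.35) and 3.31 ± 0.68 in eWAT adipocytes (2.86 to 4.63). In BAT it was 17.6 ± 5.51 (11.8 to 26.6), above every white sample. Mki67 had the largest fold of all members between the white depots, 3.71-fold higher in eWAT adipocytes. The median member was 2.64-fold and Cd68 4.03-fold higher there, so the ratio of Mki67 does not stand for the other members. These are ratios of levels and no test was made of them.

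With Adipoq, the adipocyte hormone adiponectin, the median correlation of the 43 members over 6 samples was -0.74 within iWAT, -0.53 within eWAT and 0.43 within BAT samples, beside -0.34, -0.19 and 0.35 for all genes. Across the 6 numbers shared by the white depots, the median correlation of a member's level in iWAT with its level in eWAT adipocytes was 0.53, beside 0.04 for all genes. It was above 0 for 41 of 43 members, beside 53.5% of all genes. The members vary together within each white depot, so the 41 are not separate results. None of the 43 had an exact permutation p under 0.05, and no source says that a shared number is a shared mouse.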
